A study of Mus musculus with 4 samples.

Results

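The claudins are the membrane proteins that form the strands of the tight junction, the seal near the apical edge of epithelial cells. Each claudin crosses the membrane several times and its extracellular loops pair with claudins of the neighbouring cell. Some claudins, such as claudin-1, claudin-3, claudin-4, claudin-7 and claudin-8, are known mainly for making the seal tight, whereas claudin-2, claudin-10 and claudin-15 form paracellular pores for ions or water. In the uterus the luminal epithelium carries these junctions and separates the uterine cavity, where the embryo attaches, from the stroma below. The genes described here are Cldn1, Cldn2, Cldn3, Cldn4, Cldn7, Cldn8, Cldn10, Cldn12, Cldn15 and Cldn23. They were taken by symbol and make up 10 of the 23235 gene models in each deposited table.

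RNA was sequenced from 4 libraries of mouse uterus, taken on day 4 of a pseudopregnancy brought on by mating with vasectomized males, so without embryos. Luminal epithelium and stroma were each captured by laser microdissection. In each compartment, 1 library came from a uterus labelled Msx1 d/d, Msx2 d/d (knockout) and 1 from a uterus labelled Msx1 f/f, Msx2 f/f (floxed control). Msx1 and Msx2 encode homeobox transcription factors. The series describes the deletion as uterine-specific and names 1 mouse of each genotype. The sources used here do not give the Cre driver, the deleted exons or the age of the mice. Genotype and mouse cannot be told apart, no value has a replicate, and "higher" and "lower" below compare single libraries. The 2 compartments were deposited as tables normalized separately, so levels across them stand side by side only.

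Msx1 was at 13.6 RPKM (mapped reads scaled to transcript length and library size) in luminal epithelium labelled knockout, against 23.2 RPKM in its control. Msx2 was at 2.06 RPKM in luminal epithelium labelled knockout, against 1.31 RPKM in the control, which goes against the label. In stroma both were nearly absent: Msx1 was at 0.0207 RPKM in the labelled knockout and 0.0467 RPKM in the control, with Msx2 at 0.0564 RPKM in the labelled knockout and 0.135 RPKM in the control. Msx1as, a non-coding model listed with the same span as Msx1, was at 2.15 RPKM in luminal epithelium labelled knockout and 39.0 RPKM in its control, and whether counting used strand is not known, so reads of the pair cannot be told apart. Since the deleted exons are unknown, remaining reads do not settle the labels, and the libraries are called labelled knockout throughout. Estimated depth was 90.7 M reads in luminal epithelium labelled knockout, against 6.24 M in its control, and 62.5 M in stroma labelled knockout, against 42.7 M in its control. Low claudins in control luminal epithelium thus rest on few reads. Keratins and adhesion genes of epithelium (Krt8, Krt18, Krt19, Cdh1, Epcam) summed to 207 RPKM in luminal epithelium labelled knockout and 199 RPKM in its control, against 0.327 and 0.864 RPKM in the stroma libraries in the same order. Summed markers of other cells were lower in luminal epithelium labelled knockout than in its control: 10 stromal markers summed to 7.14 and 15.8 RPKM, 6 leukocyte markers to 2.53 and 15.5 RPKM, 5 smooth muscle markers to 0.534 and 4.15 RPKM, 6 endothelial markers to 0.0701 and 0.211 RPKM, and 4 mesothelial markers to 0.0553 and 0.254 RPKM. The 6 glandular markers summed to 0.293 and 0.270 RPKM, with Prss28, Prss29, Spink3 and Ttr listed at 0 in both and the defining gene Foxa2 at 0.0312 and 0.0881 RPKM. Emcn and Cldn5 of the endothelial list and Upk3b of the mesothelial list were also at 0 in both. The 1 erythrocyte marker in the table, Alas2, was at 0.607 and 0.659 RPKM. The part of these other cells, and of the depth gap, in the claudin differences was not tested.

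The promoter regions of 3 claudin genes are shown because the results turn on these genes. Cldn1 had the largest difference between genotypes in luminal epithelium, and Cldn3 had the highest level. Cldn4, the neighbour of Cldn3 on chromosome 5, was lower where Cldn3 was higher in the deposited RPKM, a contrast that depends on scaling. Each run holds the 250 bases before and 50 bases after a RefSeq start site in build GRCm38.p6, written 5′ to 3′ on the strand of the gene. Cldn1 is chr16:26371790-26372089 on the minus strand, Cldn3 is chr5:134985964-134986263 on the plus strand and Cldn4 is chr5:134946885-134947184 on the minus strand. Capitals mark the GC box GGGCGG, which Sp1-type factors bind, and the E-box CAGGTG, which Snail-type repressors bind, each searched on both strands. A match on the opposite strand reads CCGCCC or CACCTG.
Cldn1: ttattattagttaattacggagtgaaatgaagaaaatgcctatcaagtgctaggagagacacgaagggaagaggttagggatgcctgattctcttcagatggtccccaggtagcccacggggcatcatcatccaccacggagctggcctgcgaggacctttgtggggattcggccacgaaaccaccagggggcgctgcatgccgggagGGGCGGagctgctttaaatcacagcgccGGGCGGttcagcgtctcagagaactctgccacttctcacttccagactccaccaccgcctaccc
Cldn3: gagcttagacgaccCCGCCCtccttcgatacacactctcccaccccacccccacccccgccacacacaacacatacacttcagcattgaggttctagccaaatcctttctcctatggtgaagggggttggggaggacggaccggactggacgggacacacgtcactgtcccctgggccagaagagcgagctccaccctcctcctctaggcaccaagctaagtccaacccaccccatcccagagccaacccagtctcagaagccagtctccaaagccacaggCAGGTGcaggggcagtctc
Cldn4: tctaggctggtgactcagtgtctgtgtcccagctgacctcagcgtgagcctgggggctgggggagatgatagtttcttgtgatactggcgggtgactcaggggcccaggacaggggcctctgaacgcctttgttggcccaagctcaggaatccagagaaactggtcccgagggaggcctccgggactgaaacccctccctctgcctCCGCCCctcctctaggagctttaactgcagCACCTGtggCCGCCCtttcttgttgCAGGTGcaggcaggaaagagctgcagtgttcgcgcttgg
The Cldn1 region held 2 GC boxes and no CAGGTG. The Cldn3 region held 1 of each, and the Cldn4 region held 2 of each, with no overlap between the marked words. Among all 32851 promoter regions of the same length in that table, 35.7% held GGGCGG and 20.2% held CAGGTG on either strand. The word TAATTG, taken as the Msx core, the Grainyhead word AACNGGTT and the TATA word TATAAA were also searched on both strands. Other homeobox words were not searched. TAATTG and AACNGGTT were in none of the 12 regions listed for the claudins described, against 8.0% and 2.09% of all regions, and TATAAA was in the Cldn2 region alone, against 13.6% of all regions. Regions were listed for 8 of the 10 genes, the exceptions being Cldn8 and Cldn23. A match or its absence describes only these letters in these windows.

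By the deposited RPKM of luminal epithelium, Cldn1 and Cldn23 were at least 2-fold higher in the labelled knockout than in the control. Cldn23 was just under 2-fold higher relative to the sum of all RPKM. By the deposited RPKM, no claudin among those kept was at least 2-fold lower. Cldn3 and Cldn7, the most abundant claudins, differed by less than 1.5-fold, Cldn4 was slightly lower, and Cldn10 and Cldn12 were low genes with ratios of 1.83 and 1.89. Differences were taken as log2((labelled knockout + 1)/(control + 1)) of the RPKM, which understates ratios of low genes. A gene was kept where the 2 libraries averaged 1 RPKM or more, and called where the difference reached 1 in size. By this measure 7 of the 10 claudins were kept and 2 were called higher, whereas 5.03% of the 7736 genes kept were called higher, 1.99% lower and 7.02% either way. Cldn12, at 0.998 RPKM in the control, passed the minimum through the labelled knockout, so the median log2 difference of the 7, 0.53, is a description only. Over all 10 claudins the median was 0.36, and over all kept genes it was 0.10. The libraries are bulk captures, so fewer cells of a type and less RNA per cell cannot be told apart in any of these values.

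**Figure D1:**
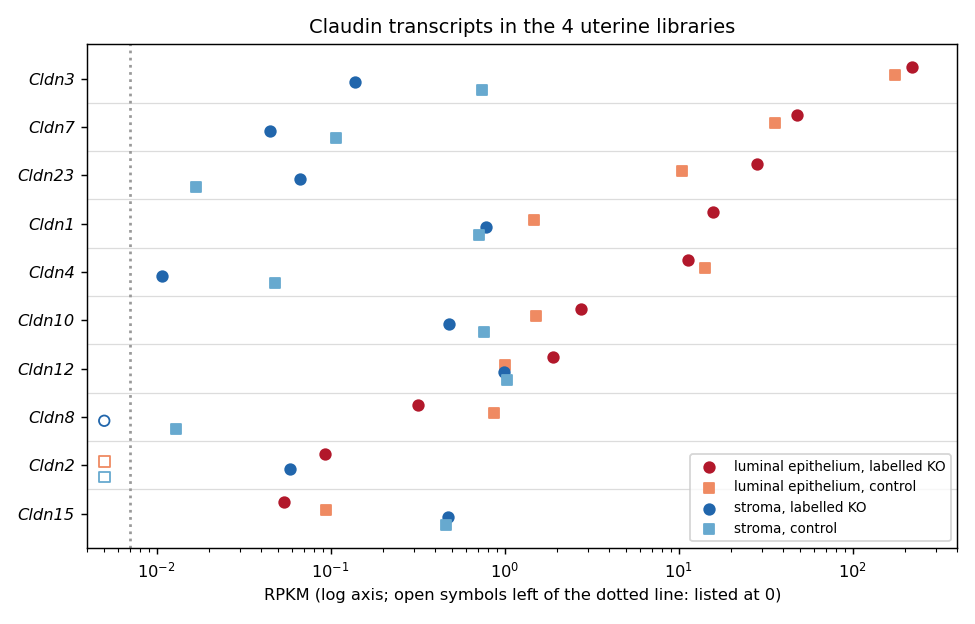
RPKM of each claudin (log axis) in the 4 libraries, 1 point per library, ordered by level in luminal epithelium labelled knockout, with open symbols for values listed at 0. Cldn3 lay at 218 and 175 RPKM in luminal epithelium labelled knockout and control and below 1 RPKM in both stroma libraries, and Cldn1 was the gene with the widest gap between the luminal epithelium libraries among those above 1 RPKM in both.

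Among the claudins known for sealing the junction, Cldn3, which with Cldn4 is a receptor for an enterotoxin of Clostridium perfringens, was the most abundant. Cldn3 was at 218 RPKM in luminal epithelium labelled knockout and 175 RPKM in the control, against 0.138 and 0.739 RPKM in the stroma libraries in the same order. It ranked 33rd and 36th of all gene models in the 2 luminal epithelium libraries, and its ratio of labelled knockout to control there was 1.25, with 95% exact binomial (Clopper-Pearson) limits of 1.18 and 1.33. All limits of this kind rest on estimated reads and reflect counting error alone, not the spread between mice. In the mm9 table Cldn3 was given the span chromosome 5, 135462084 to 135477220, the same span as the non-coding model Wbscr25, which was at 0.164 RPKM in luminal epithelium labelled knockout and listed at 0 in the other 3 libraries. The span of Cldn4 (chromosome 5, 135420993 to 135422804) ends 39.3 kb before it.

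Cldn4 was at 11.4 RPKM in luminal epithelium labelled knockout and 14.1 RPKM in the control. Its ratio was 0.805, with counting limits of 0.679 and 0.964, so in the deposited RPKM it lay on the other side of 1 from Cldn3. Relative to the sum of all RPKM, both genes were lower in the labelled knockout. Within luminal epithelium labelled knockout there was 19.2 times as much Cldn3 as Cldn4 per length, against 12.4 times in the control. In stroma Cldn4 rested on an estimated 1 read in the labelled knockout and 3 reads in the control, too few to compare.

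Cldn7, which is also found along the lateral membrane and binds the adhesion protein Epcam, was the second most abundant. Cldn7 (chromosome 11, 69778281 to 69781388) was at 48.1 RPKM in luminal epithelium labelled knockout and 35.9 RPKM in the control, and the ratio of 1.34 lay within counting limits of 1.16 to 1.55. Epcam itself was at 26.2 RPKM in luminal epithelium labelled knockout and 24.1 RPKM in the control, with limits of its ratio of 0.961 and 1.23. In stroma Cldn7 was at 0.0451 RPKM in the labelled knockout and 0.107 RPKM in the control, an estimated 3 and 4 reads.

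Cldn1, without which the skin barrier of mice leaks, had the largest difference among the claudins kept. Cldn1 (chromosome 16, 26356732 to 26371925) was at 15.8 RPKM in luminal epithelium labelled knockout and 1.48 RPKM in the control, an estimated 4368 reads against 28. In stroma Cldn1 was at 0.785 RPKM in the labelled knockout and 0.708 RPKM in the control, so the stromal libraries lay close together and below both epithelial ones. The luminal epithelium ratio was 10.7, with counting limits of 7.42 and 16.2, and the stroma ratio was 1.11, with limits of 0.847 and 1.45. Whether the 2 compartments differ in this ratio could not be tested with 1 library a group. By its log2 difference of 2.76, Cldn1 ranked 116th of the 7736 genes kept in luminal epithelium, and 21st once small RNA and unnamed models were set aside. In the order of claudin levels it was 4th in luminal epithelium labelled knockout, above Cldn4, and 6th in the control, where its level could not be separated from those of Cldn10 and Cldn12 within counting error. In the authors' deposited table Cldn1 was the 1 claudin of 8 tested in luminal epithelium that was marked significant, with a q-value of 0.0354, which compares 2 libraries and not the genotypes. That table marked 94 of 11176 genes tested there, 0.841%, and in stroma 5 of 12239, 0.0409%, with none of the 5 claudins tested among them.

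Cldn8, known in the kidney collecting duct, was a low gene that lay in the other direction. Cldn8 (chromosome 16, 88561071 to 88563428) was at 0.317 RPKM in luminal epithelium labelled knockout and 0.874 RPKM in the control, an estimated 62 and 12 reads. Its ratio was 0.363, with counting limits of 0.190 and 0.725, and it did not pass the minimum of 1 RPKM. In stroma it was listed at 0 in the labelled knockout and at 0.0129 RPKM in the control.

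Cldn23, a less studied claudin, was the other gene called higher. Cldn23 (chromosome 8, 36887763 to 36889613) was at 28.1 RPKM in luminal epithelium labelled knockout and 10.4 RPKM in the control, an estimated 4199 and 107 reads. In stroma it was at 0.0667 RPKM in the labelled knockout and 0.0168 RPKM in the control, an estimated 7 reads and 1 read. The luminal epithelium ratio was 2.69, with counting limits of 2.23 and 3.30. With the log2 difference of 1.35 it ranked 268th of the genes kept, and the authors' deposited table gave it a q-value of 0.734. Cldn23 lay above Cldn4 in luminal epithelium labelled knockout, 2.48 times its level per length, and below it in the control, 0.740 times its level.

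Cldn12, which differs from most claudins in lacking the usual binding motif for scaffold proteins at its end, was low in all 4 libraries. Cldn12 (chromosome 5, 5505015 to 5514976) was at 1.89 RPKM in luminal epithelium labelled knockout and 0.998 RPKM in the control, and at 0.990 and 1.04 RPKM in stroma labelled knockout and control. The 3 libraries other than luminal epithelium labelled knockout were thus nearly level. The ratio was 1.89 in luminal epithelium, with counting limits of 1.22 and 3.06, and 0.955 in stroma, with limits of 0.769 and 1.18.

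The pore-forming claudins were all low. Cldn10 is made in forms that pass either anions or cations, and its 6 transcripts in the table run from 1031 to 2128 bases, so its estimated reads are the least certain. Cldn10 (chromosome 14, 119187093 to 119273747) was at 2.75 RPKM in luminal epithelium labelled knockout and 1.51 RPKM in the control, and at 0.477 and 0.764 RPKM in stroma labelled knockout and control. Its ratio of 1.83 in luminal epithelium had counting limits of 0.935 and 4.0, and its ratio of 0.624 in stroma had limits of 0.356 and 1.06. Both ranges reach 1, so no difference in Cldn10 was detectable at this depth. The deposited values do not separate its forms.

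Cldn15, a sodium pore of the intestine, lay higher in stroma than in luminal epithelium beyond counting error in the labelled knockout, and not in the controls, where luminal epithelium had an estimated 1 read. Cldn15 (chromosome 5, 137443739 to 137451715) was at 0.0540 RPKM in luminal epithelium labelled knockout and 0.0940 RPKM in the control, an estimated 8 reads in the labelled knockout, and at 0.470 and 0.461 RPKM in stroma labelled knockout and control, an estimated 48 and 32 reads. Cldn2, a cation and water pore (chromosome X, 136335347 to 136345927), was at 0.0930 RPKM in luminal epithelium labelled knockout and 0.0581 RPKM in stroma labelled knockout and was listed at 0 in both controls. In control luminal epithelium 3 reads of Cldn2 would be 0.169 RPKM, above the level in the labelled knockout, so no difference was detectable there. In control stroma 3 reads would be 0.0247 RPKM, against an estimated 10 reads in stroma labelled knockout.

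**Figure D2:**
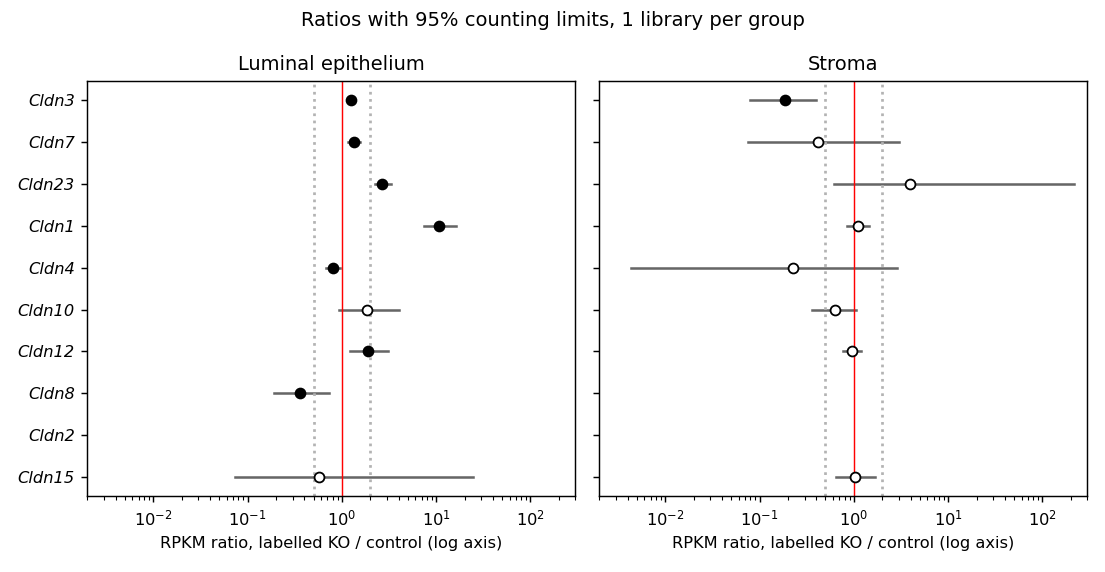
Ratio of RPKM in labelled knockout to control (log axis) for each claudin in luminal epithelium (left) and stroma (right), with 95% exact binomial limits on estimated reads. Filled points have limits that leave out 1, the red line marks equal levels and dotted lines mark 2-fold differences. Cldn1 at 10.7 and Cldn23 at 2.69 stand beyond the upper dotted line in luminal epithelium and Cldn8 at 0.363 beyond the lower, and genes with a library listed at 0 (Cldn2 in both panels, Cldn8 in stroma) have no point.

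By counting error alone, the limits of the ratio in luminal epithelium left out 1 for 7 of the 10 claudins, 5 of them higher (Cldn1, Cldn3, Cldn7, Cldn12 and Cldn23) and 2 lower (Cldn4 and Cldn8). The limits left out 1 for 25.5% of 15823 models with an estimated read in either library. Among genes kept they left out 1 for 6 of the 7 claudins and for 37.4% of 7640 genes with a length. In stroma they left out 1 for 2 of 10, Cldn3 as lower and Cldn2 as higher, against 31.2% of 17005 models. At least 2-fold lower ratios with such limits, which Cldn8 had in luminal epithelium and Cldn3 in stroma, were found for 6.82% of models in luminal epithelium and 4.43% in stroma. Small ratios also depend on how the libraries are scaled. Rescaling luminal epithelium to sums without the 50 most abundant genes moved the median of all kept genes by -0.18 on the log2 scale and gave 315 higher and 226 lower genes, 58.2% higher, against 389 and 154, 71.6% higher, as deposited. Relative to that scaling Cldn1 had a log2 difference of 2.57 and Cldn23 of 1.12, Cldn7 of 0.17, Cldn3 of 0.07 and Cldn4 of -0.52. Scaling to the general epithelial markers left Cldn1 and Cldn23 as the genes called. Scaling to the sum of all RPKM was not run. The shares given below place Cldn3 and Cldn7 lower against that sum, and Cldn23 just under 2-fold higher.

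The make-up of the claudin transcripts was compared per length. The 10 claudins summed to 327 RPKM in luminal epithelium labelled knockout and 240 RPKM in the control, a ratio of 1.36. Cldn3 made up 66.8% of that sum in the labelled knockout and 72.8% in the control, and Cldn7 made up 14.7% and 14.9%. Cldn23 took 8.60% in the labelled knockout and 4.34% in the control, Cldn1 took 4.84% and 0.615%, and Cldn4 took 3.47% and 5.86%. In luminal epithelium labelled knockout the order was Cldn3, Cldn7, Cldn23, Cldn1, Cldn4, Cldn10, Cldn12, Cldn8, Cldn2 and Cldn15, and only the last pair of neighbours could not be separated by counting error. In the control the order was Cldn3, Cldn7, Cldn4 and Cldn23, then Cldn10, Cldn1, Cldn12 and Cldn8, whose neighbours could not be separated, then Cldn15 and Cldn2, likewise not separated. Without Cldn3, the other 9 genes summed to 108 RPKM in luminal epithelium labelled knockout and 65.4 RPKM in the control. The share of all RPKM held by the 10 claudins was 0.298% in both libraries. Their higher sum in the labelled knockout thus went with a higher sum over all genes, and relative to that sum the 10 together were level.

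**Figure D3:**
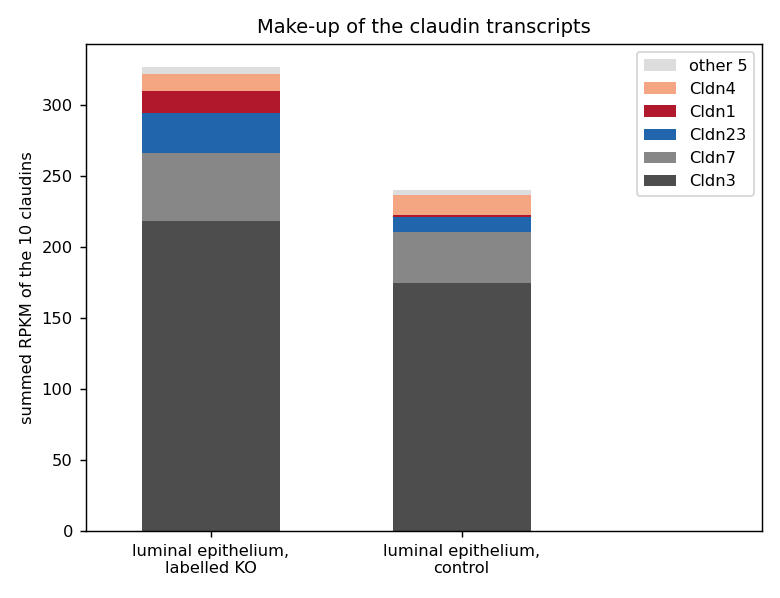
Summed RPKM of the 10 claudins in luminal epithelium labelled knockout (left bar, 327 RPKM) and control (right bar, 240 RPKM), 1 library each, split by gene. Cldn3 is the largest block in both, and the Cldn1 block is 15.8 RPKM in the labelled knockout and 1.48 RPKM in the control. Each bar is 0.298% of all RPKM in its library.

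In stroma the same claudins were low, none above 1.04 RPKM. Of the 10, 1 reached the minimum mean of 1 RPKM, Cldn12, and it was not called, whereas 1.45% of the 7723 genes kept in stroma were called higher, 1.59% lower and 3.04% either way. The 10 summed to 3.04 RPKM in stroma labelled knockout and 3.89 RPKM in the control. Cldn12 held the largest share of that sum, 32.6% in stroma labelled knockout and 26.6% in the control, followed in the labelled knockout by Cldn1 at 25.8%, against 18.2% in the control. Cldn3, at an estimated 9 reads against 33, had a ratio of 0.187, within counting limits of 0.0784 to 0.398. All 5 general epithelial markers were also lower in stroma labelled knockout than in its control, with ratios between 0.208 (Cdh1) and 0.569 (Krt8). Stromal Cldn3 was 0.0633% of its luminal epithelium level in the labelled knockout and 0.422% in the control, and the 5 markers ranged from 0.0434% to 0.350% and from 0.128% to 0.933%. The part of epithelial RNA in the stromal captures was not tested.

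Luminal epithelium was then set beside stroma within each genotype, across the separately normalized tables. Among the 7 claudins kept in each pair, 6 were called higher in luminal epithelium than in stroma in the labelled knockout by the difference with a pseudocount, where 20.7% of 8350 kept genes were called higher, 10.7% lower and 31.4% either way. In the controls 4 were called higher by the same measure (Cldn3, Cldn4, Cldn7 and Cldn23), where 19.6% of 8030 kept genes were called higher, 12.1% lower and 31.7% either way. Every claudin called in either pair lay below 1 RPKM in stroma. Each thus passed the minimum through luminal epithelium, where it was high, so the counts are a description only. These counts depend on the pseudocount: with 0.01 RPKM they were 6 in the labelled knockout and 5 in the controls. By ratios of at least 2 with counting limits leaving out 1 they were 6 in each, with Cldn1, Cldn3, Cldn4, Cldn7 and Cldn23 in both, Cldn10 in the labelled knockout alone and Cldn8 in the controls alone, where 20.2% of 16401 models were higher by that rule in the labelled knockout and 17.9% of 16190 in the controls. In the labelled knockout Cldn8 was listed at 0 in stroma, so it has no ratio and this rule could not call it. Its counting limits in that pair began at 11.2 and left out 1, with an estimated 62 reads in luminal epithelium. Cldn1 was 20.1 times its stromal level in the labelled knockout pair, with counting limits of 17.2 and 23.9, and 2.09 times in the control pair, with limits of 1.31 and 3.21. Cldn10 was 5.77 times its stromal level in the labelled knockout pair, with limits of 3.92 and 8.93, and 1.97 times in the control pair, with limits of 0.831 and 4.27. Cldn3 was 1580 times its stromal level in the labelled knockout pair and 237 times in the control pair, and Cldn12 was 1.90 times and 0.963 times. Cldn15 was 0.115 times its stromal level in the labelled knockout pair, with limits of 0.0469 and 0.245, where 25.6% of models were at least 2-fold lower by the ratio rule. In the control pair it was 0.204 times, and limits of 0.00525 and 1.28 include 1. With upper quartile scaling, which moved the median of all kept genes by -0.38 in the labelled knockout pair and -0.49 in the control pair on the log2 scale, the share of higher genes among those called was 48.7% instead of 66.0% in the labelled knockout pair and 38.0% instead of 61.8% in the control pair. Without the 50 most abundant genes in the scaling it was 52.8% in the labelled knockout pair, and 53.6% in the control pair. The 6 and 4 claudins were called under both.

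Of other claudins, 13 gene models carried a current claudin symbol by their RefSeq identifiers, and 5 of these were listed at 0 in all 4 libraries. Only Cldn5, the claudin of endothelium, reached 1 RPKM: it was listed at 0 in both luminal epithelium libraries and at 1.16 RPKM in stroma labelled knockout and 0.90 RPKM in the control. In luminal epithelium the highest of these 13 values was 0.666 RPKM, for Cldn20 in the control, whose span in the table is shared with Tfb1m and Tiam2. The model named Cldn25 in the tables is now called Cldnd1 by its identifiers and is a claudin-domain gene outside the family proper. It was at 2.08 RPKM in luminal epithelium labelled knockout and 1.35 RPKM in the control, and at 2.64 and 1.55 RPKM in stroma labelled knockout and control. The models named Cldn26 and Cldn27, now Tmem114 and Tmem235, were listed at 0 throughout.

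Claudins work with other proteins of the tight junction, and none of those kept was called in luminal epithelium. Of 37 other junction genes in the table, 28 were kept and 0 were called in either direction. Over all kept genes 7.02% were called, a share that gives few calls in 28 genes. The 28 had a median log2 difference of 0.04, with 16 above 0. Counting limits left out 1 for 3 of the 11 membrane genes and 7 of the 17 scaffold genes, against 37.4% of genes kept. Among membrane proteins, the junctional adhesion molecule Jam2 was at 88.0 RPKM in luminal epithelium labelled knockout and 90.1 RPKM in the control, and Lsr, the angulin of tricellular contacts, was at 10.3 and 9.0 RPKM. Crb3, an apical polarity protein, was at 10.1 and 6.56 RPKM, with counting limits of its ratio of 1.13 and 2.16. Among the 11 membrane genes kept, the highest log2 difference was 0.63, for Cxadr, an adhesion protein known as the receptor of coxsackieviruses and adenoviruses.

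Scaffold genes, whose proteins tie claudins to the actin ring, were spread around 0. The 17 kept had a median log2 difference of 0.01 and ranged from -0.55 for Tjp3 to 0.51 for Amotl2. Inadl, which encodes the scaffold PATJ, was at 12.8 RPKM in luminal epithelium labelled knockout and 11.2 RPKM in the control. Prkci, an atypical kinase of the polarity complex, was at 6.93 and 8.09 RPKM. Amotl1, an angiomotin-family scaffold, was at 4.57 and 7.08 RPKM, and the limits of its ratio of 0.645 were 0.581 and 0.718.

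**Figure D4:**
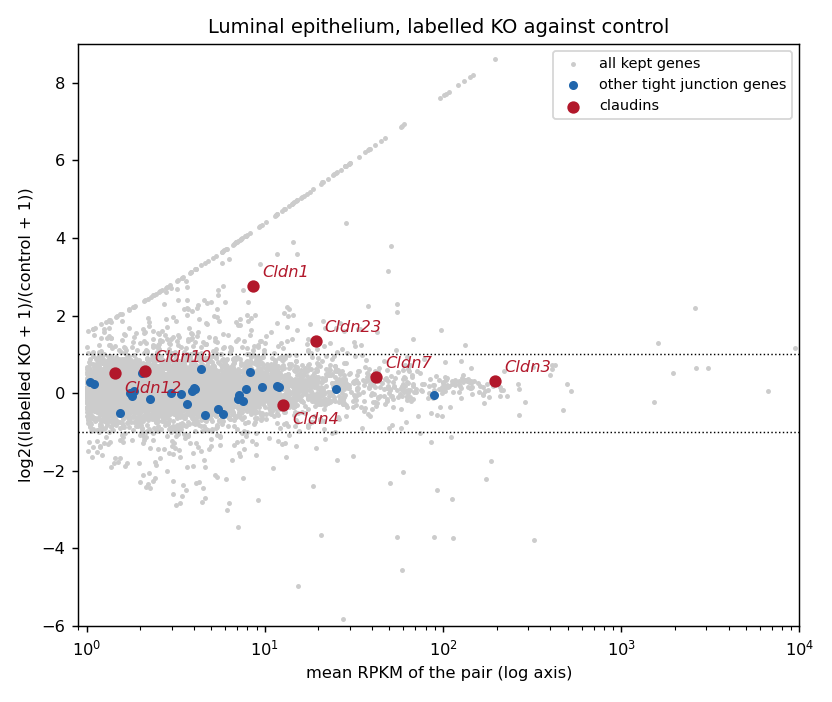
Log2 difference between luminal epithelium labelled knockout and control against the mean RPKM of the pair (log axis) for the 7736 genes kept, with 7 claudins in red and 28 other tight junction genes in blue. Cldn1 at 2.76 and Cldn23 at 1.35 lie above the dotted line at 1, and no blue point lies beyond either dotted line. The diagonal upper edge holds genes listed at 0 in the control.

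Transcription factors and surface proteases linked to claudins were given from lists of the same kind. Of 15 epithelial and mesenchymal factors, 5 were kept and 0 were called in either direction, where 7.02% of all kept genes were called, a share that gives fewer than 1 call in 5 genes. Ovol1, an epithelial zinc finger factor chosen after its values were seen, was at 1.81 RPKM in luminal epithelium labelled knockout and 0.838 RPKM in the control, and its ratio without a pseudocount was 2.16, with limits of 1.32 and 4.13. Elf3, an ETS factor of epithelia, was at 18.9 RPKM in luminal epithelium labelled knockout and 11.4 RPKM in the control, and the limits of its ratio of 1.66 were 1.39 and 1.99. Its relative Ehf was at 16.1 and 15.2 RPKM, Grhl2, a Grainyhead factor known to control claudin genes, at 7.34 and 6.53 RPKM, and Klf5 at 5.53 and 5.88 RPKM. Of the proteases and inhibitors, 6 of 6 were kept and 0 were called, against the same share. The inhibitor gene Spint2 was at 43.3 RPKM in luminal epithelium labelled knockout and 31.9 RPKM in the control, and the limits of its ratio of 1.36 were 1.19 and 1.57. Tmprss2, a serine protease, was at 14.4 and 9.16 RPKM, with limits of 1.35 and 1.85, while the matriptase gene St14 was at 10.6 and 10.7 RPKM and the prostasin gene Prss8 at 11.6 and 10.9 RPKM.

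**Figure D5:**
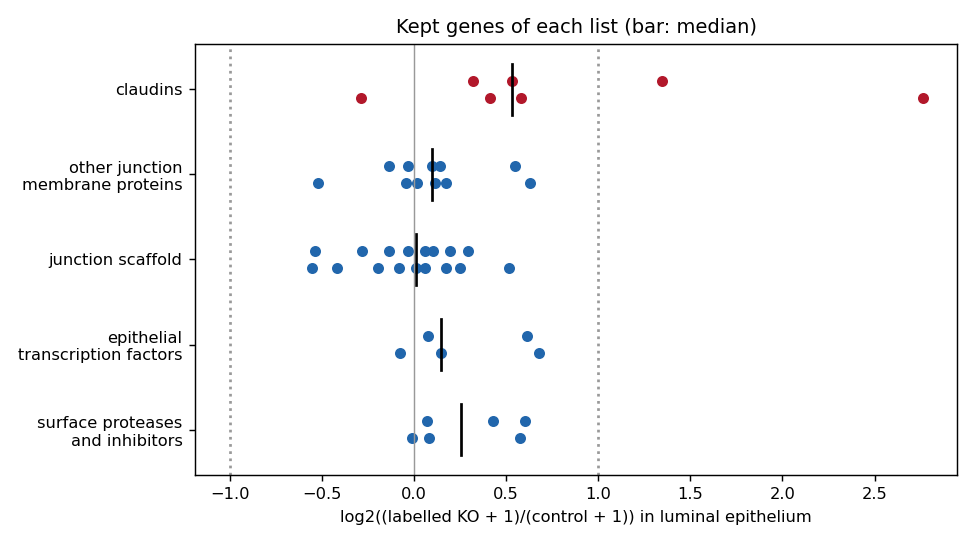
Log2 difference between luminal epithelium labelled knockout and control for each kept gene of 5 lists, 1 point per gene, with the list median as a bar. Claudins ran from -0.29 to 2.76, and the genes of the other 4 lists lay between the dotted lines at 1 and -1.

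The genes whose profile over the 4 libraries was most like that of a claudin were found by the Euclidean distance between centred log2(RPKM + 1) profiles, among named genes reaching 5 RPKM in at least 1 library. For Cldn1 the nearest of 2768 were Fam107a at a distance of 0.142, Unc5cl at 0.299 and Gadd45a at 0.336. Fam107a was at 10.2 RPKM in luminal epithelium labelled knockout and 0.773 RPKM in the control, and at 0.164 and 0.0655 RPKM in stroma labelled knockout and control. For Cldn23 the nearest were Kif5c at 0.261, Galm at 0.261 and Acbd7 at 0.367, and for Cldn10 they were Cdc34 at 0.108, Tmsb4x at 0.117 and Ncstn at 0.136. Cldn10 itself did not reach 5 RPKM, and the added 1 flattens the profile of so low a gene. Tmsb4x was at 511 and 309 RPKM in luminal epithelium labelled knockout and control, and at 190 and 217 RPKM in stroma in the same order. With 4 libraries such distances describe these values only.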

How the data were processed

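The authors deposited 1 table per compartment with an RPKM column for each library, per the file headers. The genotype of a column came from its name and the compartment from the table. Mouse build mm9, Cufflinks 2.0.2, TopHat2 2.0.5, TopHat and CASAVA 1.8.2 are named in the submitters' processing notes. The sources used here do not give filters or the use of strand, although the kit was stranded. The p-value and q-value columns, and other columns of the authors' comparison that include a log2 fold change and a test score, were deposited with them. Reads were not counted again. Differences used a pseudocount of 1 RPKM and a minimum mean of 1 RPKM, and a log2 difference of 1 in either direction was the call. Each group held 1 library, so samples could not be tested. Depth was estimated from steps in low RPKM of single-transcript genes, using GENCODE vM21 lengths less 200 bases, and between 64.1% and 65.4% of those values came within 0.2 of whole reads. Because the step was fitted to them, that share is no independent check, and amplified reads are not independent molecules. Starts from the tables were raised by 1. Promoters came from RefSeq in another build. All 10 claudins, other claudins reaching 1 RPKM, the 4 most abundant genes of each other list and any gene called were named, plus the 3 nearest profiles of Cldn1, Cldn23 and Cldn10. Some genes that this rule names are not reported here. Extremes of the lists and overlapping models were named after their values were seen. The claudins and lists were chosen with earlier results of these data known. Python 3.11.15 was used with matplotlib 3.10.9, scipy 1.17.1, pandas 2.3.3 and numpy 2.4.6, and steps were tested on simulated data.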

Additional observations from a re-analysis of the deposited data

Results flagged for a closer look

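In the deposited RPKM, Cldn3 lay on opposite sides of equality in the 2 compartments, beyond counting error in both. The ratio of labelled knockout to control was 1.25 in luminal epithelium and 0.187 in stroma, the second at an estimated 9 reads in the labelled knockout and 33 reads in the control. The difference between the compartments was not tested, since each group has 1 library. With luminal epithelium scaled to sums without the 50 most abundant genes, the log2 difference of Cldn3 there was 0.07. Relative to the sum of all RPKM, Cldn3 was lower in luminal epithelium labelled knockout than in its control. The opposite sides thus depend on the scaling. Of the 5 general epithelial markers, all had ratios below 1 in stroma, from 0.208 to 0.569, and the keratin gene Krt19 stood at 1.25 in luminal epithelium and 0.226 in stroma. The part of epithelial RNA in the stromal captures was not tested.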

How the results depend on the processing

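Cldn1 and Cldn23 were the 2 claudins called higher in luminal epithelium under each of the 8 alternatives planned. The 3 rescalings, which alone of these can turn a sign, left the sign of each of the 10 log2 differences there as it was. Scaling to the sum of all RPKM, of which the 10 claudins held 0.298% in both luminal epithelium libraries, was not among them. Since the 10 were level against that sum, their shares within the 10 show what it would change. Cldn3 held 66.8% in the labelled knockout and 72.8% in the control, and Cldn7 held 14.7% and 14.9%, so both signs turn. Cldn23 held 8.60% and 4.34%, just under 2-fold apart, so its call is lost. Without a pseudocount or minimum but with counting limits leaving out 1, an alternative chosen after seeing the data, 1 claudin was called lower in luminal epithelium (Cldn8), 1 in stroma (Cldn3) and 1 in luminal epithelium against stroma of the labelled knockout (Cldn15), against 0 in each, and 6 were called higher in luminal epithelium against stroma of the controls, against 4. Counts over all genes moved more. In luminal epithelium, 640 were higher and 279 lower with a pseudocount of 0.1 RPKM, 676 and 299 with 0.01 RPKM, and 204 and 62 with a minimum of 5 RPKM, and 258 were higher without small RNA and unnamed models. In stroma, 186 were lower with a pseudocount of 0.01 RPKM, and 34 were higher and 37 lower without small RNA and unnamed models. For luminal epithelium against stroma, a minimum of 5 RPKM gave 728 higher and 235 lower in the labelled knockout and 606 and 291 in the control, and upper quartile scaling gave 1140 higher in the labelled knockout and 880 in the control. A higher minimum and fewer models test fewer genes, while for the pseudocount and scaling the cause was not tested. No paired analysis was possible because each group has 1 library. The control luminal epithelium depth of 6.24 M reads limits every claudin below about 1 RPKM there.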
